A study of Oryza sativa with 18 samples.

Results

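The genes at the start of chromosome 1 are the entries of the deposited rice tables whose identifier begins LOC_Os01g0, the lowest 10000 identifier units of that chromosome. The rule left out 6 genes of that stretch, of which 4 are annotated as small heat shock proteins, 1 as a raffinose synthase and 1 as a gibberellin 3 beta-hydroxylase. In all 125 genes qualified, of 3149 genes listed at any time. The study compared embryos of germinating rice (Oryza sativa) seeds of the wild type line 9522 with csa mutant embryos, 3 h, 6 h or 12 h into imbibition, the uptake of water that starts germination. Each of the 6 groups held 3 libraries, 18 in all. The labels give embryo as the tissue, while the extraction protocol names 5 seeds. Seeds of every group germinated at 28 °C with 16 h of light and 8 h of darkness a day. The sources used here do not state which allele the csa mutant carries or whether it was outcrossed. The RNA came from bulk tissue, so fewer cells of a type and less RNA per cell cannot be told apart. The labels do not say whether replicates came from separate plants, so the authors' p-values measure the spread between these libraries, which may be technical.

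Rice locus identifiers of the LOC_Os01g form are numbered in order along chromosome 1, usually in steps of 10, so genes with close numbers lie close together. Neighbouring plant genes are often tandem copies of one family, such as receptor-like kinases, proteinase inhibitors or glycosyltransferases. CSA, the gene that names the mutant, encodes an R2R3 MYB factor known for directing sugar to the rice anther. It lies on the same chromosome at LOC_Os01g16810, outside the stretch.

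The tables list a gene at a time only if the authors called it, at a false discovery rate (FDR) of up to 0.05 and a fold change of at least 1 on the log2 scale. The members were thus chosen by position together with the csa against wild type calls at every time, so their values are given as a description, with no test. Scaled counts are raw counts divided by library factors recovered from the deposited fold changes, which lay between 0.918 and 1.11. Log2 ratios are csa over wild type from mean scaled counts, with standard errors from 3 libraries a group.

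At 6 h, where CSA itself was listed, raw counts in the csa libraries were 92, 81 and 201, against 310, 305 and 380 in wild type. Csa replicate 3 had the highest CSA count of the mutant libraries, and the groups did not overlap. Genes whose text named glutelin or prolamin, storage proteins of the endosperm, were listed 4, 2 and 1 times at 3 h, 6 h and 12 h, all higher in csa. Their summed scaled count at 3 h was 5121 to 6667 in csa and 2117 to 2590 in wild type. At 6 h it was 320 to 516 against 165 to 208, and at 12 h 1714 to 4023 against 461 to 1015. No granule-bound starch synthase was among them, and 1 of the 2 at 6 h, the glutelin family gene LOC_Os01g02150, belongs to the stretch. Embryo genes, taken as those whose text named EM1, globulin 1, oleosin or REG2, were listed 7 times at 3 h and 7 times at 6 h, all higher. The genes differed in part between these times. They summed to 97735 to 187703 in csa and 39263 to 62990 in wild type at 3 h. At 6 h the sums were 74726 to 85728 against 27034 to 39453. At 12 h the 1 listed embryo gene summed to 99.8 to 213 in csa and 44.7 to 88.1 in wild type. Of the genes named for photosystems, chlorophyll binding or Rubisco, 8 were listed at 3 h, all higher, with sums of 550 to 951 against 175 to 275. At 6 h there were 3 higher and 3 lower, with sums of 284 to 393 against 316 to 379, and at 12 h 0. The part of these levels in the results below was not tested.

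The stretch held more called genes than any other block of its size. At 3 h, 59 members were called, 31 higher and 28 lower in csa. Over the whole genome 4.91% of 21397 tested genes were called at 3 h, 3.49% higher and 1.42% lower. At 6 h, 98 members were called, 39 higher and 59 lower, against a background of 10.3% of 23117 genes, 6.03% higher and 4.30% lower. At 12 h, 19 members were called, 7 higher and 12 lower, against 0.400% of 21242 genes, 0.212% higher and 0.188% lower. How many genes of the stretch were tested is unknown, so these counts cannot be turned into shares of tested genes. As a substitute, RefSeq places 617 protein-coding genes between the chromosome's start and the last matched member. Of those, 6.97%, 12.6% and 2.27% matched a called member at 3 h, 6 h and 12 h, beside 2.64%, 6.15% and 0.194% of the protein-coding genes elsewhere. Since membership used position and calls together, nothing is read from these differences.

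Counting all called genes in blocks of 10000 identifier units on every chromosome, the stretch with its left-out genes ranked 1 of 68, 68 and 36 occupied blocks. It held 63, 103 and 21 called genes at the 3 times, while the next block held 35, 77 and 6. The median block held 13, 32 and 2. For genes lower in csa it held 29, 60 and 12, and no other block held more than 16, 28 and 4. At 12 h the members made up 22.4% of the whole table, against 5.62% at 3 h and 4.10% at 6 h.

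**Figure D1:**
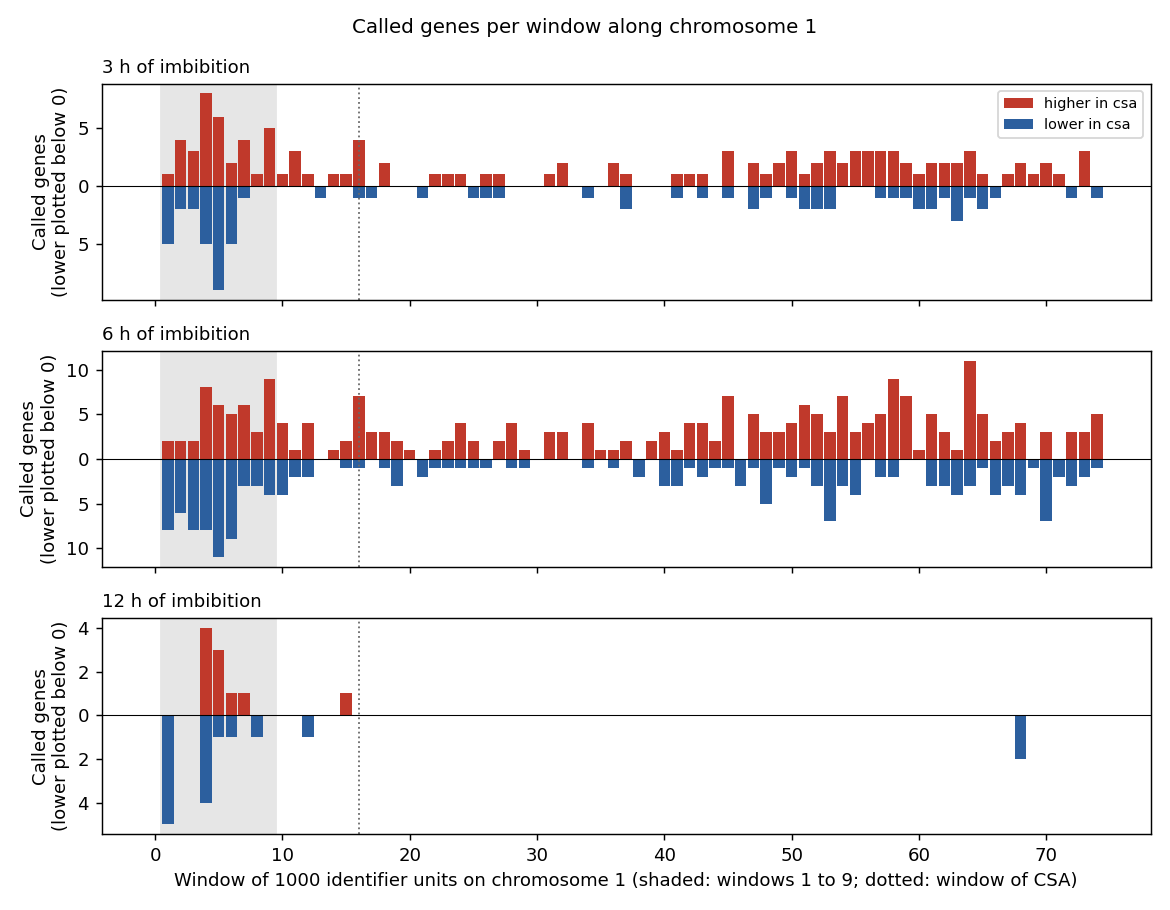
Called genes per window of 1000 identifier units along chromosome 1 at 3 h, 6 h and 12 h, with genes higher in csa above the line and genes lower in csa below it. The shaded windows 1 to 9, which include the left-out genes, hold up to 15, 17 and 8 called genes, while no later window holds more than 5, 14 and 2; the dotted line marks the window of CSA.

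Along the chromosome, windows of 1000 identifier units from number 10 onward held at most 5, 14 and 2 called genes at 3 h, 6 h and 12 h. The window LOC_Os01g05 alone held 15, 17 and 4. The window that holds CSA, LOC_Os01g16, had 5 called genes at 3 h, 8 at 6 h and 0 at 12 h, and 1 of them was lower at each of the earlier times. At the outer edge of the stretch the pattern was mixed. At 6 h the last members inside were LOC_Os01g09700 and LOC_Os01g09990, at -2.26 ± 0.55 and -1.55 ± 0.51. The nearest called genes outside were LOC_Os01g10090 at 1.65 ± 0.43 and LOC_Os01g10110 at -1.63 ± 0.73. At 3 h the genes inside were LOC_Os01g09590 and LOC_Os01g09640, at 1.63 ± 0.45 and 1.41 ± 0.23, and those outside LOC_Os01g10740 and LOC_Os01g11150, at 1.71 ± 0.38 and 1.47 ± 0.32. At 12 h LOC_Os01g07360 and LOC_Os01g08440 stood inside, at 1.08 ± 0.30 and -1.28 ± 0.21, and LOC_Os01g12110 and LOC_Os01g15900 outside, at -1.20 ± 0.26 and 1.40 ± 0.30. At the threshold of the fold change, the smallest log2 ratios of members in size were 1.01 for LOC_Os01g07280 at 3 h, 1.00 for LOC_Os01g07120 at 6 h and 1.00 for LOC_Os01g05490 at 12 h. The largest FDR of a member, in the authors' deposited table, was 0.0421 for LOC_Os01g01580 at 3 h, 0.0436 for LOC_Os01g06740 at 6 h and 0.0393 for LOC_Os01g01780 at 12 h. Genes just outside these thresholds are not listed in the tables. The genotypes overlapped in 1 listed member, LOC_Os01g05694 at 6 h, while 96.1%, 97.3% and 100% of all entries had no overlap at 3 h, 6 h and 12 h.

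In the authors' deposited table a log2 fold change beyond 2 in size was reached by 32 of 59 members at 3 h, or 54.2%, against 15.7% of the other entries. At 6 h it was reached by 40 of 98 members, 40.8% against 19.0%, and at 12 h by 6 of 19, 31.6% against 22.7%. On the higher side alone it was reached by 12 of 31 members at 3 h, 13 of 39 at 6 h and 4 of 7 at 12 h, beside 134 of 715, 288 of 1356 and 8 of 38 other entries. On the lower side it was 20 of 28, 27 of 59 and 2 of 12 members, beside 22 of 276, 148 of 934 and 7 of 28 other entries. Of 42 entries in the whole 3 h table at -2 or below, 20 were members, and of 175 at 6 h, 27 were. The median absolute log2 fold change was 2.09 against 1.33 elsewhere at 3 h and 1.72 against 1.41 at 6 h. Members also had lower counts, with a median scaled count of 47.6 against 80.8 elsewhere at 3 h and 107 against 118 at 6 h. The part of count level in these fold changes was not tested.

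Direction was not spread evenly along the stretch. The limits at LOC_Os01g05000 and LOC_Os01g07000 used here were drawn with the data known. From LOC_Os01g01000 to LOC_Os01g04999, 13 members were higher and 13 lower at 3 h, 11 higher and 30 lower at 6 h, and 2 higher and 9 lower at 12 h. From LOC_Os01g05000 to LOC_Os01g06999 there were 8 higher and 14 lower at 3 h, 11 and 20 at 6 h, and 4 and 2 at 12 h. From LOC_Os01g07000 onward there were 10 higher and 1 lower at 3 h, 17 and 9 at 6 h, and 1 and 1 at 12 h. Among all other entries, 72.1%, 59.2% and 57.6% were higher at 3 h, 6 h and 12 h. The longest run of members with one direction over all times at which they were called was 15 genes, from LOC_Os01g04800 to LOC_Os01g05310, all lower in csa. Runs of 9 lower genes from LOC_Os01g01470 to LOC_Os01g01890 and of 9 higher genes from LOC_Os01g08690 to LOC_Os01g09360 came next. Of 68 neighbouring pairs of members no more than 100 identifier units apart at 6 h, 52 had the same direction, 76.5% beside 62.1% of 941 such pairs elsewhere. At 3 h it was 26 of 35, 74.3% beside 69.7% of 231 pairs.

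**Figure D2:**
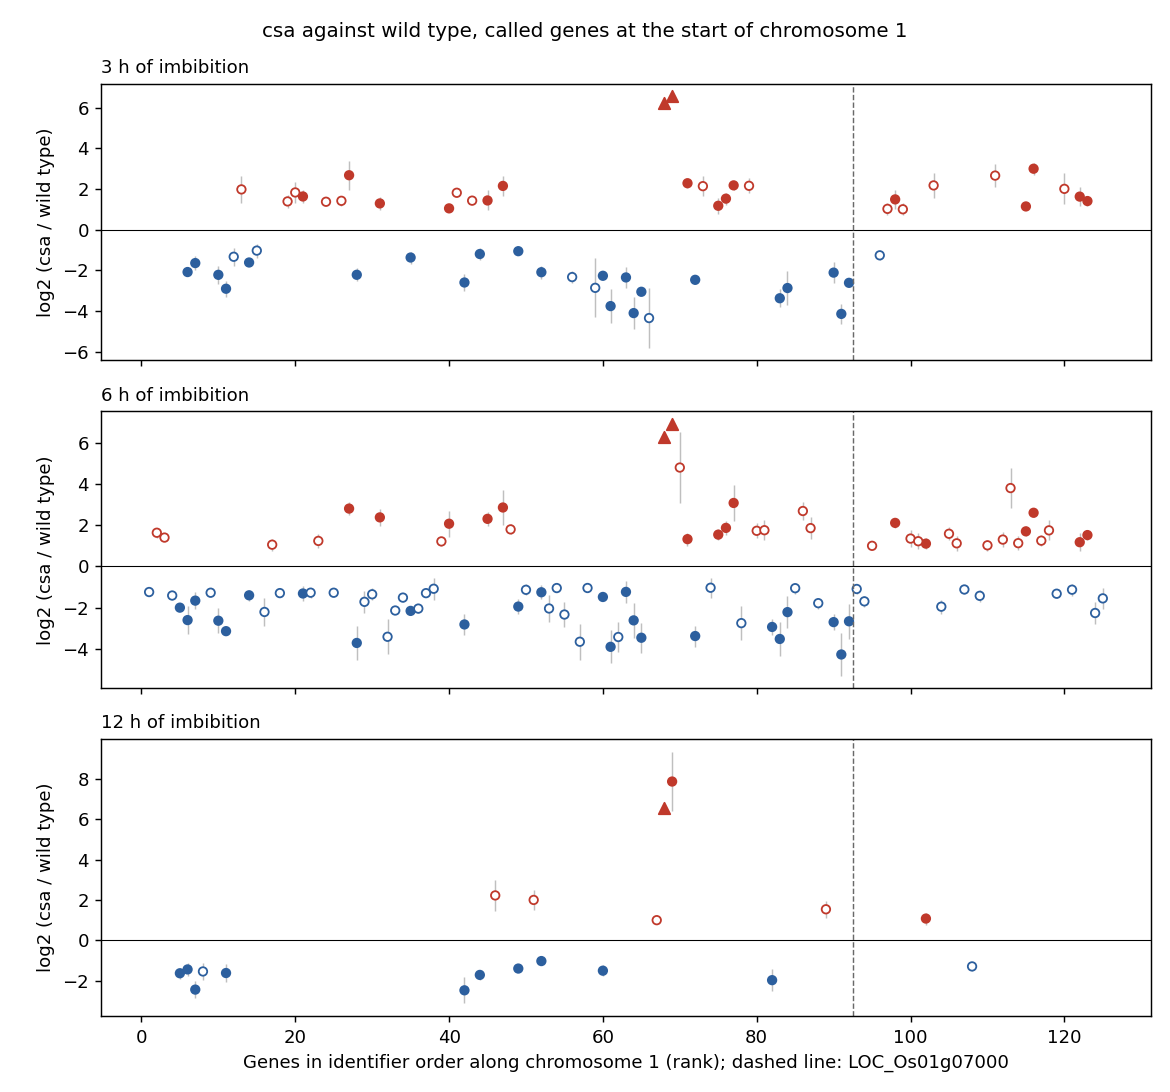
Log2 ratio of csa over wild type for every member called at 3 h, 6 h and 12 h (red higher, blue lower, bars 1 standard error, 3 libraries a group), in identifier order. Filled points are genes called at more than 1 time, and triangles are lower bounds for genes with 0 counts in wild type. Right of the dashed line at LOC_Os01g07000, drawn with the data known, every filled point is higher in csa, as were 228 of 310 recurrent genes elsewhere.

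Many members were called repeatedly. Of the 125 members, 42 were called at more than 1 time, or 33.6%, beside 10.3% of the 3018 genes listed elsewhere. All 3 times were reached by 9 members, or 7.20%, beside 7 genes or 0.232% elsewhere. Of the other recurrent members, 29 were called at 3 h and 6 h, 3 at 6 h and 12 h, and 1 at 3 h and 12 h. The 38 members shared by 3 h and 6 h were 64.4% of the 3 h members and 38.8% of the 6 h members, and 37 of them kept their direction. Both overlaps with 12 h, 10 genes with 3 h and 12 with 6 h, kept their direction throughout. Most other listed genes did so too, 242 of 286 shared by 3 h and 6 h. With 12 h it was 14 of 17 shared with 3 h and 18 of 21 shared with 6 h. Each time had its own wild type libraries, so no control is common to these lists.

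Recurrence was most marked for genes lower in csa. Of 57 genes in the whole series that were lower at every one of at least 2 times, 24 were members, or 42.1%. Of 248 that were higher in this way, 17 were members, or 6.85%, while members were 3.97% of all listed genes. All 24 recurrently lower members lay below LOC_Os01g07000, where 92 members were found. This limit was drawn with the data known, so the split at it is a description only. The last of them was LOC_Os01g06920, just before that limit. Among the 33 members from there on, 6 were recurrent and all 6 were higher. Of the 310 recurrent genes elsewhere, 228 were higher, 33 lower and 49 mixed, so higher was the usual direction of recurrence.

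A pair of neighbouring genes was higher in csa with 0 reads in nearly every wild type library. LOC_Os01g05510, a conserved hypothetical gene, had raw counts of 61, 66 and 92 in csa at 3 h, 57, 79 and 97 at 6 h, and 78, 117 and 88 at 12 h. All 9 wild type libraries had 0. LOC_Os01g05530 encodes a Brix domain protein, a class known for assembling ribosomal subunits. Its raw counts were 75, 99 and 104 in csa at 3 h, 123, 96 and 142 at 6 h, and 50, 112 and 64 at 12 h, while 1 wild type library at 12 h had 1 read and the other 8 had 0. Against a floor of 3 counts over the wild type group, LOC_Os01g05510 was at least 74.8-fold, 78.5-fold and 94.7-fold higher in csa at 3 h, 6 h and 12 h. LOC_Os01g05530 was at least 95.2-fold and 122-fold higher at 3 h and 6 h. At 12 h its ratio was 232, with an exact 95% interval from 41.2 to 9197 that covers counting error only. Reads without molecular identifiers are not independent molecules, so floors and such intervals cover no more than that.

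No other entry of the 3 h table had 0 counts in all libraries of 1 genotype, and 1 other did at 6 h, LOC_Os01g68290, also on chromosome 1. No gene in any of the tables was at 0 in all csa libraries. Wild type replicate 3 at 12 h, whose genotype field names the mutant while its title and description name the wild type, had 0 counts of both genes.

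Close to this pair, LOC_Os01g05585, a hypothetical gene, was higher in csa at 3 h and 6 h. Its raw counts were 222, 336 and 242 in csa against 55, 62 and 56 in wild type at 3 h, and 186, 156 and 183 against 53, 55 and 112 at 6 h. The log2 ratio was 2.29 ± 0.22 and 1.33 ± 0.32. Its neighbour LOC_Os01g05580, with no annotation text, was called at 6 h with 4, 2 and 23 counts in csa and 1, 0 and 0 in wild type. Its ratio of 30.0 had an exact 95% interval for counting error from 4.97 to 1224, and csa replicate 3 held most of the reads.

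The cytosolic triosephosphate isomerase gene LOC_Os01g05490, a glycolytic enzyme, opens the same run of 5 higher genes. Its raw counts at 12 h were 25991, 22190 and 24038 in csa against 11657, 12112 and 13557 in wild type, a log2 ratio of 1.00 ± 0.16. The groups did not overlap, as in 100% of all entries at 12 h, and the gene was not called at 3 h or 6 h.

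In csa 7 genes were lower at all 3 times in the authors' calls. In an edgeR refit 4 of them, LOC_Os01g01570, LOC_Os01g01780, LOC_Os01g04800 and LOC_Os01g05180, lost their 12 h call, so that 5 of the 9 genes called at all 3 times remained. A DESeq2 refit kept 6 of the 9. The kinesin heavy chain gene LOC_Os01g01570, a microtubule motor, had raw counts of 62, 45 and 75 in csa against 275, 247 and 287 in wild type at 3 h. At 6 h they were 88, 45 and 10 against 292, 261 and 373, and at 12 h 158, 81 and 149 against 420, 321 and 361. The groups did not overlap at any time, and csa replicate 3 at 6 h was the lowest library. The log2 ratio was -2.08 ± 0.20, -2.61 ± 0.70 and -1.43 ± 0.34. The next gene along the chromosome, LOC_Os01g01580, which has no annotation text, stood at -1.64 ± 0.34, -1.66 ± 0.40 and -2.43 ± 0.40, with at most 9 reads in a csa library.

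LOC_Os01g01780, annotated as like limonene cyclase, which makes a monoterpene, had raw counts of 9, 10 and 20 in csa against 99, 96 and 112 in wild type at 3 h. At 6 h they were 8, 10 and 8 against 78, 68 and 94, and at 12 h 35, 16 and 18 against 88, 73 and 61. The csa level in replicates 1, 2 and 3 was 10.6%, 13.4% and 9.81% of the wild type mean at 6 h. At 12 h it was 52.3%, 20.1% and 25.8%. The log2 ratio was -2.91 ± 0.39, -3.15 ± 0.16 and -1.61 ± 0.46 at 3 h, 6 h and 12 h.

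LOC_Os01g04430, also without annotation text, had 18, 9 and 7 raw counts in csa against 70, 76 and 70 in wild type at 3 h. At 6 h they were 18, 10 and 5 against 87, 75 and 82, and at 12 h 33, 5 and 20 against 117, 131 and 96. The log2 ratio stayed between -2.82 and -2.46, with standard errors of 0.42, 0.52 and 0.65. LOC_Os01g05180, of a plant family of unknown function (DUF3681), had 47, 48 and 47 raw counts in csa against 205, 226 and 290 in wild type at 3 h. Its ratio was -2.27 ± 0.15 there, -1.48 ± 0.09 at 6 h and -1.49 ± 0.28 at 12 h.

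The A1 peptidase gene LOC_Os01g04710, an aspartic protease, had 225, 149 and 172 raw counts in csa against 399, 361 and 432 in wild type at 3 h. At 6 h they were 279, 293 and 131 against 930, 1059 and 834, and at 12 h 927, 834 and 765 against 2312, 2412 and 2112. Both genotypes held more reads at the later times, in tables scaled separately, and the groups stayed apart in each. The ratio was -1.06 ± 0.18, -1.95 ± 0.38 and -1.39 ± 0.14. In the authors' deposited table its FDR of 9.27e-10 was the smallest of the lower members at 12 h.

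LOC_Os01g04800 encodes a RAV-like protein, a plant DNA-binding class known in Arabidopsis for joining AP2 and B3 domains. Its raw counts were 464, 250 and 592 in csa against 1952, 1783 and 2091 in wild type at 3 h, 834, 811 and 428 against 1587, 1961 and 1588 at 6 h, and 1016, 1500 and 944 against 2130, 2669 and 2321 at 12 h. The ratio moved from -2.09 ± 0.32 through -1.26 ± 0.34 to -1.02 ± 0.18. The nearby RAV2-like gene LOC_Os01g04750 went the other way at 12 h, with 27, 83 and 46 counts in csa and 18, 9 and 12 in wild type, a ratio of 2.00 ± 0.47. The sources used here do not state how the counting treated reads shared by close copies.

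**Figure D3:**
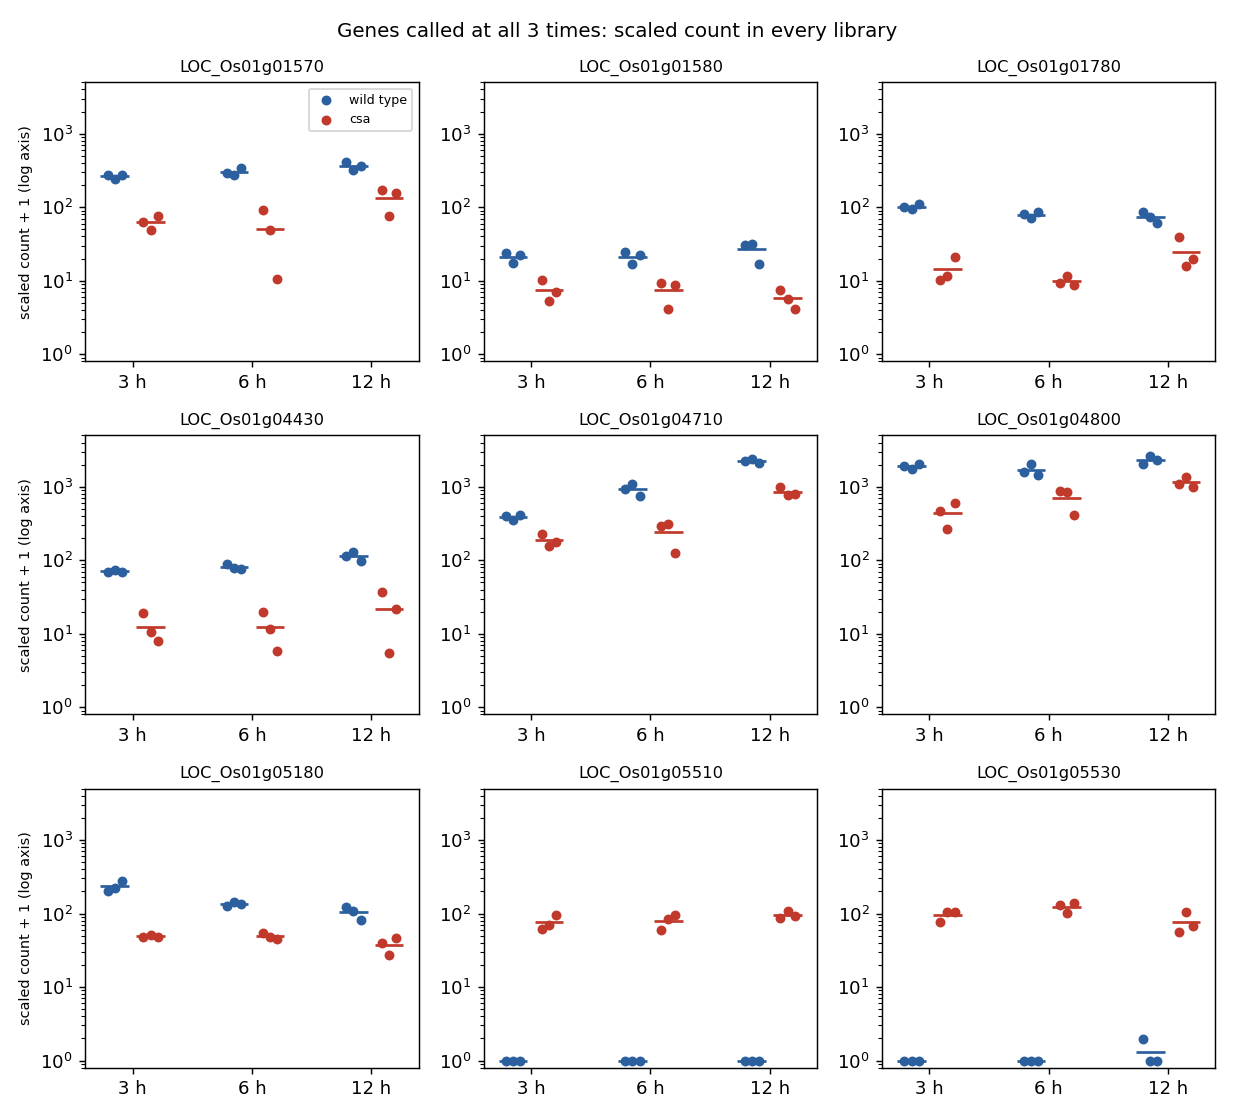
Scaled counts plus 1, on a log axis, in every library for the 9 members called at all 3 times, with wild type in blue, csa in red and a line at each mean of 3 libraries. In all 9 genes the genotypes do not overlap at any time, as in 96.1%, 97.3% and 100% of all entries at 3 h, 6 h and 12 h. Of the 9, 7 were lower in csa, and LOC_Os01g05510 and LOC_Os01g05530 higher. Of the 7, 4 lost their 12 h call in an edgeR refit, while a DESeq2 refit kept 6 of the 9 at all 3 times.

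Among members lower at 3 h, LOC_Os01g05610 had the smallest FDR. LOC_Os01g05610, a hypothetical protein gene, had 183, 111 and 199 raw counts in csa against 982, 905 and 968 in wild type, a ratio of -2.47 ± 0.23. At 6 h it had 178, 166 and 44 against 1374, 1548 and 1316, a ratio of -3.38 ± 0.51. LOC_Os01g05289, a conserved hypothetical gene, had 25, 24 and 29 against 229, 198 and 255 at 3 h, a ratio of -3.06 ± 0.13. LOC_Os01g06510, annotated as like arginyl-tRNA synthetase, which charges tRNA with arginine, had 17, 9 and 6 against 117, 101 and 130, a ratio of -3.37 ± 0.44. None of these genes overlapped between genotypes at 3 h, which was a condition for naming them.

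A lower member with deep wild type counts was LOC_Os01g06740, a protein synthesis inhibitor II gene of the ribosome-inactivating class, enzymes that damage ribosomal RNA. It had 24, 51 and 79 raw counts in csa against 993, 703 and 1173 in wild type at 3 h, and 111, 29 and 0 against 1022, 967 and 879 at 6 h. The ratio was -4.14 ± 0.49 and -4.28 ± 1.03. A second gene with the same annotation, LOC_Os01g07300, was higher at 6 h at 1.36 ± 0.42, with 546, 534 and 935 counts against 385, 204 and 210.

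Higher members with the smallest FDR at 3 h included the 16.9 kDa class I heat shock protein gene LOC_Os01g04380, a small chaperone. It had 6472, 7181 and 6865 raw counts in csa against 3653, 3297 and 3473 in wild type, a ratio of 1.05 ± 0.08. At 6 h its counts were 4971, 6267 and 3015 against 1839, 1234 and 359, a ratio of 2.08 ± 0.64, and wild type replicate 3 was the lowest library. The protein kinase gene LOC_Os01g04409 beside it had 276, 254 and 305 against 76, 87 and 86 at 3 h, a ratio of 1.82 ± 0.08. The genotypes did not overlap for either gene, which at 3 h was a condition for naming them.

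At 6 h the smallest FDR on the lower side, 2.32e-24 in the authors' deposited table, belonged to LOC_Os01g03940. This hypothetical conserved gene had 155, 135 and 144 raw counts in csa against 567, 709 and 731 in wild type, a ratio of -2.16 ± 0.13, after -1.37 ± 0.29 at 3 h. The alpha-xylosidase gene LOC_Os01g03950 next to it, whose product trims xylose from wall xyloglucan, had 3726, 2710 and 3869 against 12421, 16629 and 14704. LOC_Os01g01520, a transferase family gene, had 75, 59 and 87 against 260, 308 and 345 at 6 h. At 12 h it had 421, 374 and 258 against 1183, 1269 and 892.

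On the higher side at 6 h, LOC_Os01g01295, a conserved hypothetical gene, had 591, 500 and 649 raw counts in csa against 261, 182 and 235 in wild type, a ratio of 1.40 ± 0.16. LOC_Os01g09252, a WD40 repeat gene, had 376, 340 and 607 against 150, 118 and 147 at 6 h, a ratio of 1.71 ± 0.24, and 1.15 ± 0.17 at 3 h. LOC_Os01g09270, with no annotation text, was at 3.00 ± 0.29 and 2.61 ± 0.20 at these times. All csa libraries exceeded all wild type libraries in each case, which was a condition for naming LOC_Os01g01295 and LOC_Os01g09252 at 6 h.

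The Bowman-Birk genes, whose products block trypsin-like proteases, were called in both directions. LOC_Os01g03680 was higher, with 1387, 1788 and 1213 raw counts in csa against 775, 681 and 428 in wild type at 3 h, and 619, 840 and 635 against 183, 61 and 177 at 6 h. Its ratio was 1.29 ± 0.31 and 2.39 ± 0.43. LOC_Os01g03340 was lower at 6 h, with 7117, 3811 and 1797 against 14231, 15387 and 14207, a ratio of -1.72 ± 0.55. The csa libraries spread widely for this gene, with replicate 3 lowest, but stayed below wild type.

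A pair of SINA domain genes, whose class includes ubiquitin ligases in other plants and animals, also differed in direction. LOC_Os01g03170 had 27, 21 and 25 raw counts in csa against 2, 2 and 8 in wild type at 3 h, and 19, 15 and 14 against 2, 3 and 2 at 6 h. LOC_Os01g03190 had 3, 2 and 4 against 11, 18 and 15 at 3 h, and 4, 2 and 0 against 29, 25 and 30 at 6 h. The ratios were 2.68 ± 0.72 and 2.81 ± 0.30 for the higher gene and -2.22 ± 0.33 and -3.72 ± 0.83 for the lower one.

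By role, protein kinase genes, which pass on signals by phosphorylation, had 7 members higher and 1 lower at 3 h, beside 27 higher and 7 lower among other called genes with that text. At 6 h 3 were higher and 2 lower, beside 31 and 57. LOC_Os01g05980 and LOC_Os01g05940 were higher at both times, at 1.53 ± 0.29 and 1.18 ± 0.39 at 3 h and at 1.87 ± 0.34 and 1.55 ± 0.27 at 6 h. LOC_Os01g04450 stood at 1.43 ± 0.06 at 3 h. LOC_Os01g07560 was lower at 6 h, at -1.96 ± 0.34. At 12 h both called members were lower, LOC_Os01g04460, like a stress-induced receptor-like kinase, at -1.70 ± 0.23 and the sugar or purine kinase gene LOC_Os01g01620 at -1.53 ± 0.44. The search text takes in metabolic kinases such as the last.

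Peptidase and protease genes were lower at 6 h in all 5 called members, beside 16 higher and 21 lower elsewhere. The serine carboxypeptidase gene LOC_Os01g06490 had 12, 6 and 7 raw counts in csa against 55, 60 and 86 in wild type, a ratio of -2.94 ± 0.37. At 12 h it was at -1.96 ± 0.55, with 46, 12 and 57 counts against 186, 163 and 129. A signal peptidase subunit gene (LOC_Os01g04030) stood at -1.30 ± 0.20. The 5 include a wound-induced protease inhibitor, LOC_Os01g04050, at -1.08 ± 0.54, which inhibits rather than cuts proteins. At 12 h the C26 peptidase gene LOC_Os01g04620 was higher, with 91, 95 and 128 counts against 11, 11 and 47, while LOC_Os01g04710 and LOC_Os01g06490 were lower.

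Genes of sugar chains and the cell wall had 3 members higher and 2 lower at 6 h, beside 34 and 40 elsewhere. The glycosyltransferase gene LOC_Os01g02940 was at -1.28 ± 0.17 and the UDP-glucosyltransferase gene LOC_Os01g08090 at 1.59 ± 0.31. At 12 h LOC_Os01g08440, of the latter family, had 229, 437 and 284 raw counts in csa against 836, 781 and 722 in wild type. A search for transcription factor wording matched 1 higher and 1 lower member at 6 h, beside 62 and 47 elsewhere. Its terms missed members of DNA-binding classes with other wording, so these counts are incomplete. The missed members include the RAV-like genes given above, LOC_Os01g01470 with a NAM domain at -1.41 ± 0.23, LOC_Os01g07120, a DRE binding protein, at 1.00 ± 0.14, and the helix-loop-helix gene LOC_Os01g09990, all at 6 h except LOC_Os01g04750. MYBS2 (LOC_Os01g09280), known in rice for binding a sugar response element of alpha-amylase promoters, was at 1.25 ± 0.26, with 713, 690 and 1129 counts against 386, 263 and 448. The SHAQKYF class MYB gene LOC_Os01g08160 was at -1.12 ± 0.24.

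Other roles had few members. The gibberellin receptor-like gene LOC_Os01g06060 was higher at 3 h, with 11, 17 and 15 raw counts in csa against 3, 4 and 3 in wild type. At 6 h it had 10, 7 and 8 against 0, 2 and 1, a ratio of 8.61 with an exact 95% counting interval from 2.63 to 44.6. The cytochrome P450 gene LOC_Os01g08810 had 8, 20 and 14 against 3, 1 and 3 at 3 h. A search for transport text matched LOC_Os01g03490, with a heavy metal transport or detoxification domain, at 94, 106 and 59 against 189, 245 and 257 at 6 h. It missed the cation efflux family gene LOC_Os01g03914, at -1.51 ± 0.20 at 6 h. F-box, ubiquitin or RING text, and defence text, matched 0 members. These terms missed the SINA domain genes given above. Text on translation or RNA matched 2 lower members at 3 h, beside 5 higher and 1 lower elsewhere, and 1 higher and 2 lower at 6 h, beside 14 and 3. The members were the arginyl-tRNA synthetase-like gene and the ribosome-inactivating genes given above. This search missed the Brix domain gene LOC_Os01g05530, higher in csa at 3 h, 6 h and 12 h, so these counts are incomplete. The pyruvate decarboxylase gene LOC_Os01g06660, of ethanol fermentation, was called at 12 h with 145, 373 and 232 counts against 65, 74 and 119, a ratio of 1.54 ± 0.42. The KIP1-like gene LOC_Os01g07360 was higher at 6 h and 12 h, at 1.11 ± 0.29 and 1.08 ± 0.30. Of all members, 12 had no annotation text and 24 were hypothetical or of unknown function.

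One member turned round between times. LOC_Os01g02300, annotated as like an ARK protein fragment, a receptor kinase class, had 100, 58 and 101 raw counts in csa against 38, 22 and 27 in wild type at 3 h. At 6 h it had 161, 83 and 87 in csa against 238, 296 and 323 in wild type. The ratio was 1.64 ± 0.33 at 3 h and -1.32 ± 0.37 at 6 h, with no overlap between genotypes at either time. The difference between the times was not tested, because the tables were scaled separately and list only called genes.

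For members called at both 3 h and 6 h with one direction, most deposited log2 fold changes lay within 1 of each other. Among the 21 lower genes the median of the deposited log2 fold changes was -2.35 at 3 h and -2.64 at 6 h, and 18 differed by no more than 1 between the times. Among the 16 higher genes it was 1.58 and 2.22, and 14 differed by no more than 1. Only 10 lower and 8 higher genes differed by no more than 0.5, with a median absolute difference of 0.52 and 0.51. The change from 3 h to 6 h ranged from -1.53 to 1.46 for lower genes and from -0.96 to 1.09 for higher genes.

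The csa libraries did not share one residual level. For members with a deposited log2 fold change of -2 or below and at least 20 scaled counts in wild type, the median csa level at 3 h was 16.0%, 12.0% and 19.4% of the wild type mean in replicates 1, 2 and 3, over 14 genes. At 6 h, over 22 genes, it was 18.7%, 14.4% and 4.58%. In csa replicate 3 at 6 h, 8 of the 22 genes stood at 2% of wild type or below, and 0 did in replicates 1 and 2. They were LOC_Os01g03190, LOC_Os01g05220, LOC_Os01g05250, LOC_Os01g05280, LOC_Os01g05289, LOC_Os01g06080, LOC_Os01g06510 and LOC_Os01g06740. For LOC_Os01g05289 the raw counts were 37, 24 and 1, and for LOC_Os01g05220 6, 4 and 0. Among the 119 genes elsewhere chosen in the same way, the medians at 6 h were 24.1%, 20.2% and 13.0%, and 2 stood at 2% or below in replicate 3. The fold change that chose these genes includes replicate 3 itself, so the choice favours genes low in that library. Without the cut at -2, the medians at 6 h over 54 lower members were 39.1%, 31.1% and 24.5%. Over 897 lower genes elsewhere they were 42.7%, 40.9% and 29.9%. Csa replicate 3 also stood farthest from its group over all entries, at a median log2 distance of 0.498 against 0.312 to 0.413 for the others at 6 h. In an edgeR refit 31 higher and 48 lower members were kept without it, against 38 and 57 with all libraries. Leaving out another library also lowered the counts, to 31 and 49 without wild type replicate 2 and to 35 and 51 without csa replicate 2. The part of csa replicate 3 in the 6 h ratios was not tested.

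**Figure D4:**
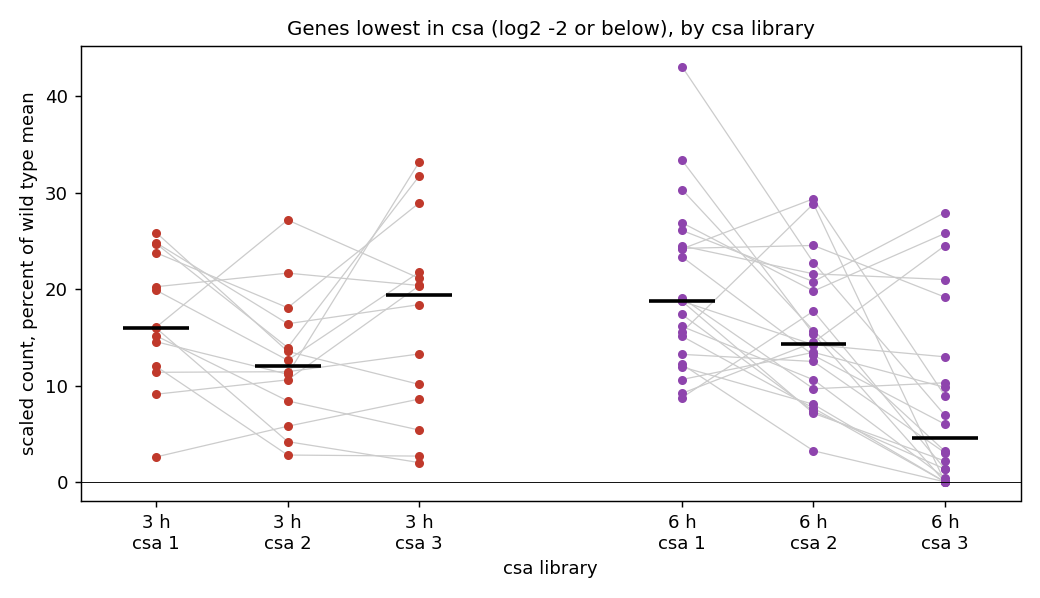
Scaled count in each csa library as a percent of the wild type mean, for 14 members at 3 h and 22 at 6 h that had a deposited log2 fold change of -2 or below and at least 20 wild type counts. Grey lines join a gene's values, black bars are medians, and csa replicate 3 at 6 h has a median of 4.58%, below 18.7% and 14.4% in replicates 1 and 2. The cut at -2 includes replicate 3 itself, and without it the replicate 3 median at 6 h was 24.5% over 54 lower members.

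Of the 59 members at 3 h, 57 were kept by edgeR's quasi-likelihood test on all listed entries, and of the 98 at 6 h, 95. These are 96.6% and 96.9%, beside 95.6% and 95.4% of all entries. At 12 h 4 higher and 5 lower members of 19 were kept, 47.4% beside 45.9% of all entries, among them LOC_Os01g05510, LOC_Os01g05530, LOC_Os01g01520, LOC_Os01g04430 and LOC_Os01g04710. A DESeq2 refit kept 5 higher and 10 lower members at 12 h, so the number kept depended on the method. In the edgeR refit without csa replicate 2, which stood farthest from its group at 12 h, 3 higher and 0 lower members were kept. Without wild type replicate 1, 2 or 3, the last with the conflicting genotype field, 3, 2 and 3 higher and 4, 3 and 3 lower members were kept. Without csa replicate 3 it was 4 higher and 3 lower. Libraries were also scaled by edgeR's trimmed mean of log ratios over the listed genes alone. That refit kept 4 higher and 28 lower members at 3 h and 17 and 59 at 6 h. That scaling moved the log2 ratios of listed genes by a median of -1.24 at 3 h, -0.59 at 6 h and -0.066 at 12 h. The median deposited log2 fold change of all entries was 1.20, 1.11 and 1.04 at these times. Listed genes were therefore not centred on no change at 6 h or 12 h. Under that scaling 5 members changed sign at 3 h, 0 at 6 h and 0 at 12 h.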

How the data were processed

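The deposited tables hold raw read counts per gene and library, as whole numbers, for called genes only. Per the file headers they also hold the authors' log2 fold change, p-value and FDR. DESeq2 is named, with no version, per the submitters' processing notes, and the sources used here do not state the aligner, counter, strand setting or build. Every sample column matched a sample by name, with 0 unmatched, and samples were grouped by title. Depth per library is unknown, since only called genes are listed.

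Library factors were fitted so that ratios of group means matched the deposited log2 fold changes, with a residual SD of 0.000752 at 3 h, 0.00204 at 6 h and 0.00236 at 12 h on the log2 scale. The number of genes tested was solved from deposited p-values and FDRs under Benjamini-Hochberg adjustment, as the number that made most ranks whole. At 12 h the best numbers lie between 21237 and 21247, but only 22 ranks could be used. Of these 54.5% came out whole, beside 36.4% for the next best number, so the 12 h number is less certain. At 3 h it was 77.3% beside 17.7%, and at 6 h 78.2% beside 11.8%. Refits used edgeR 4.0.16 (quasi-likelihood test) and DESeq2 1.42.0 in R 4.3.3 on every listed entry. A call counted as kept if the refit gave a p within the table's own deposited maximum, a log2 ratio of at least 1 in size and an unchanged direction. The factor fit and the edgeR refit were tested on simulated data. Standard errors take 3 libraries a group.

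The members, lists and tests were chosen with earlier results of these data known. Genes named are those called at all 3 times or at 12 h, the 5 with the smallest FDR per time and direction without overlap between genotypes, those with 0 counts in 1 genotype, those turning round, up to 3 per role, those at the edges, and, chosen after their values were seen, the remaining examples. RefSeq (ASM3414082v1) served for names, gene order and the substitute shares of protein-coding genes, and 99 of 125 members matched. Alternatives tried are given in the closing section.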

Additional observations from a re-analysis of the deposited data

Results flagged for a closer look

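LOC_Os01g02300 was flagged because its csa effect took opposite directions at 3 h and 6 h, with every library of each genotype on its own side. Neither trait is particular to it. Of 310 recurrent genes elsewhere 49 were mixed in direction, and 96.1% and 97.3% of all entries had no overlap at 3 h and 6 h. The log2 ratio was 1.64 at 3 h and -1.32 at 6 h, and the difference was not tested. No group had more than 3 libraries, so single libraries far from the others could not be tested.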

How the results depend on the processing

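Counts of called members were recomputed under 116 combinations of count and setting, and 81 stayed within 1.5 times the deposited count. At 12 h the edgeR refit kept 4 higher and 5 lower members, 3 and 5 without scaling, and 4 and 7 when scaled to the listed genes. An FDR of at most 0.01 left 3 higher at 12 h. At all 3 times, 5 members were kept in each of those 3 edgeR refits. A DESeq2 refit kept more, 5 higher and 10 lower members at 12 h and 6 members at all 3 times. Scaled to the listed genes, the edgeR refit kept 4 higher at 3 h, 17 higher at 6 h and 27 at more than 1 time. An absolute log2 fold change of at least 2 left 12 higher at 3 h, 13 higher and 27 lower at 6 h, 4 and 2 at 12 h, 20 at more than 1 time and 3 at all 3. Leaving out 1 library at a time gave 24 to 29 higher and 24 to 26 lower at 3 h, 31 to 36 and 48 to 53 at 6 h, and 2 to 4 and 0 to 5 at 12 h.

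With the replicate number as a block, 3 higher and 6 lower members were kept at 12 h, and 5 at all 3 times. Same-numbered libraries correlated in their deviations at -0.05, 0.22 and 0.24 at 3 h, -0.21, 0.29 and 0.18 at 6 h and 0.01, 0.08 and 0.04 at 12 h, so the numbers were not taken to pair the samples, and not every library correlated best with its own number. The cause of these moves was not tested. Refits see only listed genes, so they share a spread among genes already called, and low counts limit genes such as LOC_Os01g05580.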
